A study of Homo sapiens with 13 samples.

Results

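The enzymes that consume NAD+ to modify proteins or to make signalling nucleotides were followed in CCRF-CEM, a human T cell acute lymphoblastic leukaemia line, with and without FK866, an inhibitor of NAMPT, the enzyme that rebuilds NAD+ from nicotinamide. The members were 10 genes: PARP1, PARP2, PARP3, PARP4, PARP9, PARP14, the tankyrases TNKS and TNKS2, the glycohydrolase PARG, which removes what the PARPs add, and CD38. They were taken by gene name among all probes of the microarray that are no controls, which gave 14 probes, 1 spot each, of 34127 probes for 25940 gene names. The array carried 3 probes for PARP1, 2 each for PARP4 and PARG, and 1 for each of the other genes.

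RNA was measured on 13 one-colour Agilent arrays. Parental cells (CEM PA) received DMSO (mock, n = 3) or 5 nM FK866 (n = 2) for 48 h, and FK866-resistant cells (CEM RES) received the same (mock, n = 4; FK866, n = 4). CEM RES is 1 population selected by raising the FK866 concentration step by step, the cells used here being resistant to 100 nM and, per the study's methods, kept under FK866 in routine passage, so mock CEM RES cells had met the drug before. All groups share the line of origin and carry no transgene. Values are log2 signals after quantile normalization.

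PARP1, PARP2 and PARP3 are switched on by DNA breaks and use NAD+ to attach ADP-ribose to themselves, histones and repair factors. PARG then cuts the chains. The tankyrases modify partners such as axin and the telomere protein TERF1, PARP4 sits in vault particles, and PARP9 and PARP14 are macrodomain proteins of the interferon response. CD38, a surface marker of activated and immature lymphocytes, hydrolyses NAD+ and makes cyclic ADP-ribose. In cells whose NAD+ supply is blocked, the enzymes that use NAD+, and so not PARG, are the demand side of the balance.

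Between 26457 and 33239 of 43118 spots per array were well above background, and none was saturated. Of the members, 13 of 14 probes passed the filter on dim probes (called above background on all arrays of 1 group or more) and entered the tests, as did 22754 probes in all. The T cell identity of the line was present on every array: all 10 T cell markers looked for (CD3D, CD3E, CD3G, CD247, CD2, CD5, CD7, LCK, ZAP70 and TRAT1) were above background, with a summed log2 level of 17.2 to 17.4 in CEM PA and 17.4 to 17.6 in CEM RES. B cell markers were above background for 3 to 6 of 6 genes with summed log2 levels of 11.8 to 12.0 in CEM PA and 10.8 to 11.8 in CEM RES, myeloid markers for 2 to 4 of 5 with 6.77 to 7.24 and 6.95 to 7.70, and epithelial markers for 2 to 3 of 5 with 10.4 to 11.0 and 10.3 to 11.0. EPCAM and CDH1, which define epithelium, were above background on no array, while at least 1 probe each of the keratins KRT8 and KRT18 was above background on all 13, and the part of any of these lists in the results was not tested. RNA was taken from whole cultures, in which fewer cells with a transcript and less of it per cell cannot be told apart. CEM PA arrays were scanned in sessions 1 and 2 and all CEM RES arrays in session 3, so that line and scan session cannot be told apart in any comparison of the lines.

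Of the 13 tested probes, 1 rose at an adjusted p under 0.05 (limma, Benjamini-Hochberg over all probes), a probe of PARP1, and 2 passed the study's own double threshold of an unadjusted p under 0.05 with an absolute log2 fold change over 0.75, that probe and, downward, the probe of TNKS. Among all probes the adjusted p called 1.53% and the double threshold 6.70%. The PARP1 probe passed the filter on dim probes only through FK866-treated CEM PA cells, the group where it was high, so its count supports nothing about the members as a group. In CEM RES no member passed either rule, against 0.00% and 1.30% of all probes. No member had an unadjusted p under 0.05 there, against 1171 of 22754 probes. In the fit with a replicate block 2 of 13 member probes, both of PARG, had an unadjusted p under 0.05, against 2541 of 22754 probes. None passed the adjusted threshold.

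**Figure D1:**
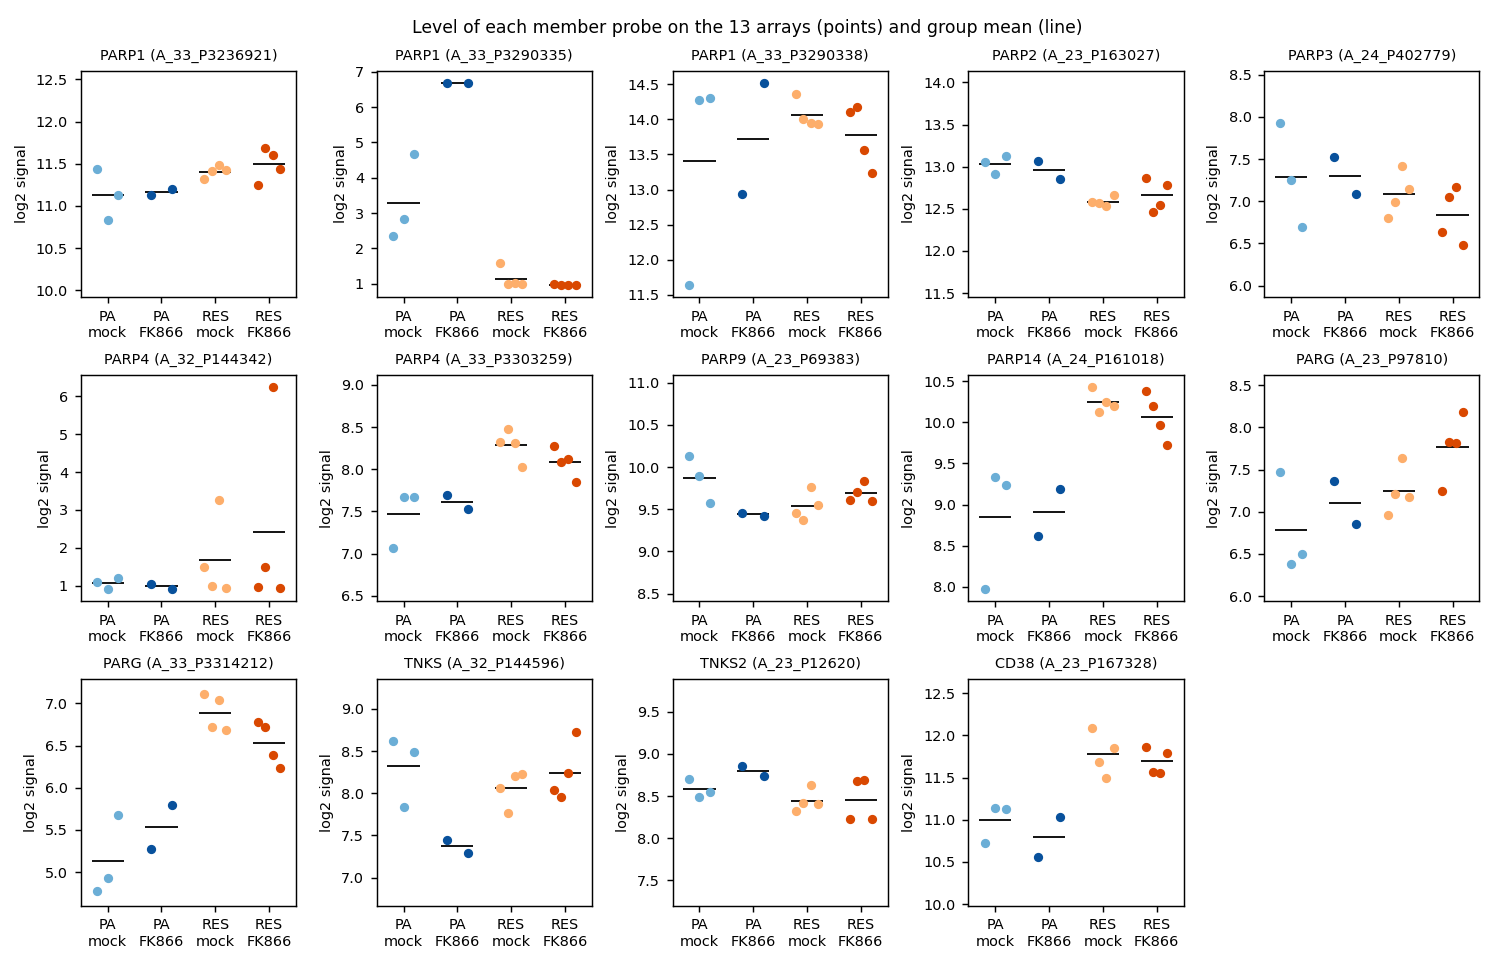
Log2 signal (vertical axes, each panel with its own range) of the 14 probes of the 10 genes on the 13 arrays; points are arrays and lines are group means. The second PARP1 probe stands at 6.68 and 6.69 on both FK866 arrays of CEM PA and at or below 1.58 on all CEM RES arrays, and CD38, PARP14 and the probe of PARG in the lower row lie higher on every CEM RES array than on any CEM PA array.

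The 3 probes for PARP1, the most abundant of the PARPs and the main consumer of NAD+ at broken DNA, gave different results. All 3 lie on the minus strand of chromosome 1 (hg19). A_33_P3290338 (chr1:226589945-226590004) and A_33_P3236921 (chr1:226549161-226549220) were designed on the reference transcript NM_001618, near the start of its coding part and at its very end. A_33_P3290335 (chr1:226589684-226589743) was designed on another transcript model, ENST00000366790, and lies 201 bases downstream of the first. Their sequences, 5′ to 3′, are shown because the probes gave different results: the 2 reference probes whole, and the first 30 of 60 bases of the third. The capitals mark the stop codon.

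A_33_P3290338: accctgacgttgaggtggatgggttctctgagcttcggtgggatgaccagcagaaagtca
A_33_P3236921: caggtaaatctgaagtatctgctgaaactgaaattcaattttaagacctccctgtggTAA
A_33_P3290335: ctgttgcatgatatttggtattttgttttt

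The third probe holds 35.0% G and C, the probe at the stop codon 36.7% and the probe near the start 55.0%. Whether the third one lies in an exon, an intron or an untranslated part of other PARP1 transcripts, and whether it binds other RNAs, was not analysed here.

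A_33_P3290335 gave log2 signals of 6.69 and 6.68 on the FK866 arrays of CEM PA and of 2.34, 2.83 and 4.68 on its mock arrays. Only the last of the mock arrays was well above background. The groups did not overlap, as was the case for 34.8% of all probes in this comparison. The log2 difference was 3.40 ± 0.49 (SE; n = 2 and 3; limma adjusted p = 0.00671). Within both scan sessions the FK866 array lay above the mean of the mock arrays, by 4.34 in session 1 and 2.92 in session 2. With mock replicates 1 and 2 not well above background, none of these sizes is a measured fold. In CEM RES the same probe lay between 0.96 and 1.58 on all 8 arrays and was well above background on none, so that it had no level there to compare. With background correction by normexp the difference in CEM PA was 1.08 (adjusted p = 0.000774). Without FK866 replicate 1 or 2 of CEM PA it was 3.40 both times with adjusted p = 0.0745 and 0.0889, each fit assuming that the lone FK866 array varies like the other groups.

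The 2 reference probes of PARP1 showed no such rise. A_33_P3236921, at the stop codon, read 11.13 and 11.20 under FK866 and 11.44, 10.83 and 11.13 in mock cells of CEM PA, a difference of 0.03 ± 0.19 (adjusted p = 0.974), and in CEM RES it differed by 0.09 ± 0.15 (adjusted p = 1.000). A_33_P3290338 read 12.93 and 14.52 against 11.64, 14.27 and 14.30. Its low values are the 2 arrays of scan session 1, and the level of session 2 was 2.20 higher than that of session 1 with treatment in the model (adjusted p = 0.147, limma). Its FK866 difference was 0.32 ± 0.69 (adjusted p = 0.898).

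The FK866 responses of the lines were compared directly as a difference of differences. Only A_33_P3290335 of PARP1 was called among the members, at a log2 difference of -3.57 ± 0.62 (adjusted p = 0.0291, limma), against 0.413% of all probes. With TNKS it was 1 of 2 member probes past the double threshold, against 8.03% of all probes. The PARP1 probe passed the filter on dim probes only through FK866-treated CEM PA cells, the group where it was high. Its call therefore supports nothing about the members. The adjusted call on PARP1 was lost in 11 of the 13 fits that left out 1 array, those without FK866 replicate 1 or 2 or mock replicate 2 of CEM PA and those without any 1 of the CEM RES arrays, and with the CEM RES values below background the size is that of the fit and not of 2 measured responses. In the fit with a replicate block, 4 of 13 member probes passed the double threshold, against 2499 of 22754 probes, up from 1828 without the block.

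**Figure D2:**
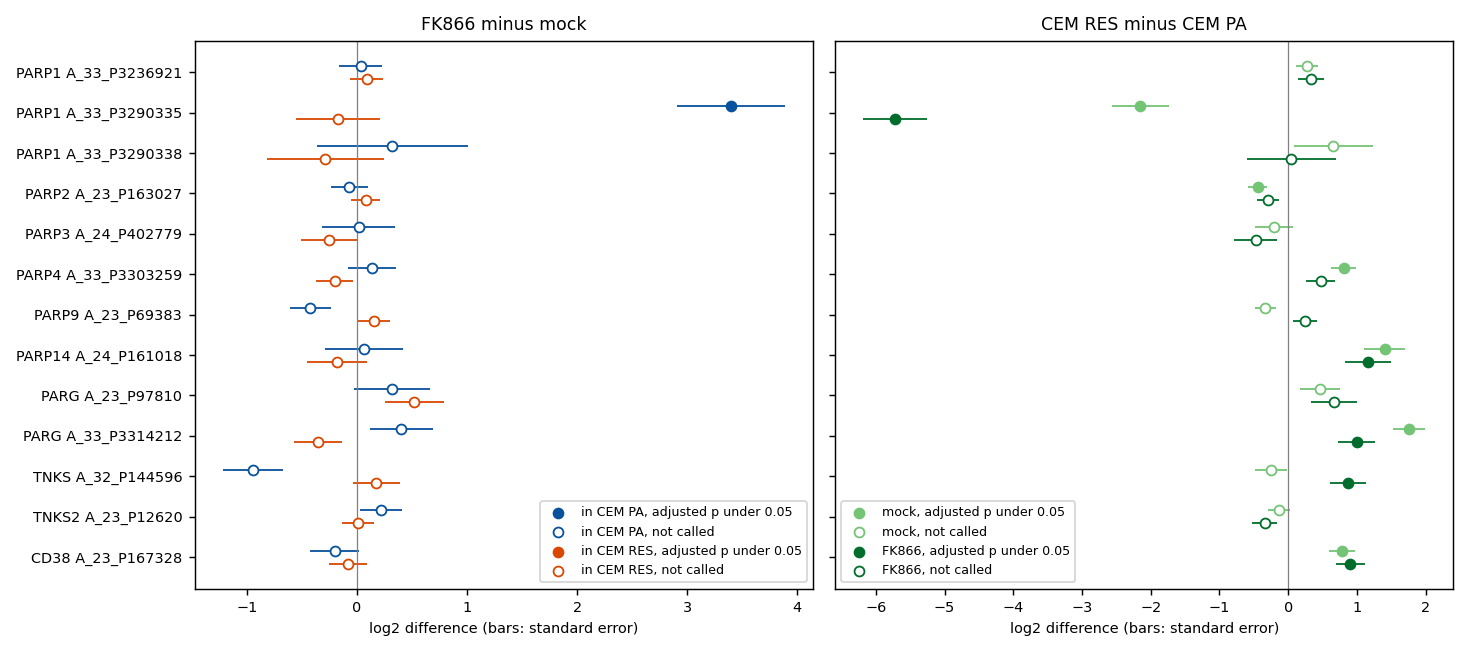
Log2 differences of the 13 tested probes with standard errors (horizontal axes), FK866 minus mock in each line on the left and CEM RES minus CEM PA on the right; filled points have an adjusted p under 0.05. On the left, A_33_P3290335 of PARP1 in CEM PA, at 3.40, is the only filled point.

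Probes of ZC3HAV1 also differed from each other. ZC3HAV1 (PARP13), a zinc-finger antiviral protein, was measured by A_23_P20122, designed on NM_024625 (chr7:138745443-138745502), and by A_33_P3397418, designed on NM_020119, which lies 17032 bases further downstream (chr7:138728351-138728410; both hg19, minus strand). A_23_P20122 read 10.67 and 10.75 under FK866 and 8.69, 8.64 and 8.96 in mock CEM PA cells, with no overlap, and rose by 1.94 ± 0.31 (adjusted p = 0.0118, limma). A_33_P3397418 read 12.11 and 12.05 against 13.08, 13.40 and 12.62, a difference of -0.95 ± 0.23 that missed the adjusted threshold (adjusted p = 0.0601). In CEM RES the differences were -0.20 and -0.01 (adjusted p = 1.000 for both). The responses of the lines differed for A_23_P20122 by -2.15 ± 0.40 (adjusted p = 0.0423) and for A_33_P3397418 by 0.94 ± 0.28 (adjusted p = 0.205). Without FK866 replicate 1 or 2 of CEM PA, the rise of A_23_P20122 was 1.98 and 1.90 with adjusted p = 0.101 and 0.117. Its difference between the lines lost its call in 11 of 13 such fits, those without any CEM PA array other than mock replicate 3 and without any CEM RES array other than FK866 replicate 1.

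**Figure D3:**
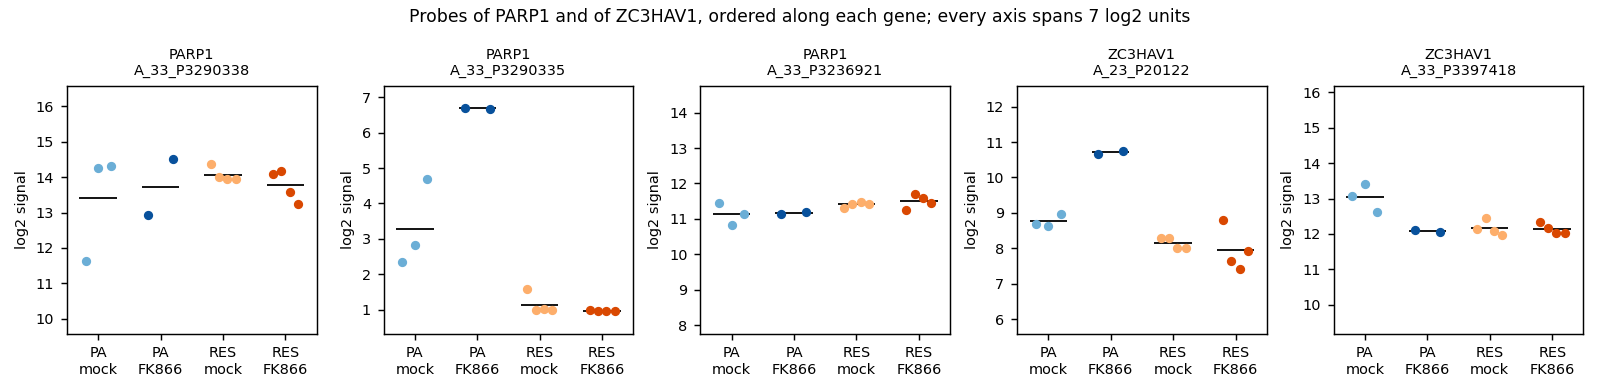
Log2 signal per array (vertical axes, each spanning 7 log2 units) of the 3 PARP1 probes and the 2 ZC3HAV1 probes, from the start to the end of each gene; points are arrays and lines are group means. Under FK866 in CEM PA the middle PARP1 probe and the first ZC3HAV1 probe stand above their mock arrays, at 6.68 to 6.69 and 10.67 to 10.75, and the PARP1 probes on either side overlap with theirs.

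TNKS (tankyrase 1), which modifies TERF1 at telomeres and axin in the Wnt pathway, was the member with the lowest FK866 difference in CEM PA. Its probe read 7.45 and 7.29 under FK866 and 8.62, 7.84 and 8.49 in mock cells, every treated array below every mock array. The log2 difference was -0.94 ± 0.27 (adjusted p = 0.119, limma), and it was -1.16 within session 1 and -0.88 within session 2. In CEM RES it was 0.18 ± 0.21, the FK866 arrays at 8.04, 7.95, 8.24 and 8.73 overlapping with the mock arrays at 8.06, 7.77, 8.20 and 8.23. The difference of the responses was 1.12 ± 0.35 (adjusted p = 0.211), past the double threshold only. Among FK866-treated cells TNKS was higher in CEM RES by 0.87 ± 0.26 (adjusted p = 0.0204), and among mock cells the difference was -0.25 ± 0.23 (adjusted p = 0.395). Without FK866 replicate 1 or 2 of CEM PA the difference between the FK866-treated lines was 0.96 and 0.79. In the same fits FK866 minus mock in CEM PA was -1.03 and -0.86. Each of these values rests on a lone treated CEM PA array.

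TNKS2, the close relative of TNKS with the same domains bar the first, read 8.86 and 8.74 under FK866 and 8.70, 8.49 and 8.55 in mock CEM PA cells. The groups did not overlap, yet the difference of 0.22 ± 0.19 was not called (adjusted p = 0.687). PARP9, an interferon-responsive partner of the ubiquitin ligase DTX3L, was the other member whose CEM PA groups did not overlap, at 9.46 and 9.42 against 10.13, 9.90 and 9.57. Its difference of -0.43 ± 0.19 had an adjusted p of 0.318 (limma). In all, 4 of 13 member probes did not overlap between treatment and mock in CEM PA, 2 higher and 2 lower, against 34.8% of all probes. In CEM RES it was 0 of 13, against 2.91% of all probes.

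The remaining members did not pass a rule after FK866 in either line. In CEM PA the differences ran from -0.20 ± 0.22 for CD38 to 0.40 ± 0.28 for A_33_P3314212 of PARG, with adjusted p from 0.585 to 0.994. PARP2, which backs up PARP1 in break repair, differed by -0.07 ± 0.17 in CEM PA and 0.08 ± 0.13 in CEM RES. PARP3, which acts at double-strand breaks, differed by 0.01 ± 0.33 and -0.25 ± 0.26, with a wide spread among mock CEM PA arrays at 7.93, 7.25 and 6.69. In CEM RES the differences ran from -0.36 ± 0.22 to 0.52 ± 0.27, and these ends belonged to the 2 probes of PARG, A_33_P3314212 and A_23_P97810. In the fit with a replicate block these values of PARG had adjusted p = 0.420 and 0.405.

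Between mock cells 4 of 13 member probes (30.8%) were higher in CEM RES at an adjusted p under 0.05, CD38, PARP14, A_33_P3303259 of PARP4 and A_33_P3314212 of PARG, and 2 (15.4%) were lower, PARP2 and A_33_P3290335 of PARP1. Among all probes 24.9% were higher and 22.7% lower. Between FK866-treated cells 4 were higher, CD38, PARP14, TNKS and A_33_P3314212 of PARG, and 1 was lower, A_33_P3290335 of PARP1, against 18.0% higher and 18.0% lower of all probes. The groups did not overlap for 6 of 13 member probes between mock cells and for 9 of 13 between treated cells, against 48.8% and 57.8% of all probes. A_33_P3290335 of PARP1 is in both counts of lower probes and both of these counts. It passed the filter on dim probes only through FK866-treated CEM PA cells and was well above background on no CEM RES array. Its place in the counts therefore supports nothing about the members. The median log2 difference of the members was 0.28 and 0.33, and of all probes 0.04 and 0.06. The member median between mock cells was 0.11 without mock replicate 1 of CEM PA, 0.13 without mock replicate 2 and 0.14 with array weights. Scaling to the 75th percentile in place of quantile normalization moved the median of all probes to 0.17 and 0.20.

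CD38 was higher in CEM RES with and without the drug. Its probe (chr4:15850185-15850244, hg19, plus strand) read 12.09, 11.68, 11.49 and 11.85 in mock CEM RES cells and 10.72, 11.14 and 11.13 in mock CEM PA cells. Under FK866 it read 11.86, 11.57, 11.56 and 11.79 in CEM RES and 10.56 and 11.03 in CEM PA. All 8 CEM RES arrays lay above all 5 CEM PA arrays. The difference was 0.78 ± 0.19 in mock (adjusted p = 0.00451, limma) and 0.90 ± 0.21 under FK866 (adjusted p = 0.00587), and FK866 changed neither line detectably, by -0.20 ± 0.22 in CEM PA and -0.08 ± 0.17 in CEM RES. Without FK866 replicate 1 of CEM PA the FK866 difference between lines was 0.67 with adjusted p = 0.102.

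PARP14, a mono-ADP-ribosyltransferase that acts with STAT6 in lymphocytes, showed the larger shift. Its probe (chr3:122437444-122437503, hg19, plus strand) read 10.43, 10.12, 10.25 and 10.20 in mock CEM RES cells and 7.97, 9.33 and 9.24 in mock CEM PA cells, and under FK866 10.38, 10.20, 9.97 and 9.73 against 8.62 and 9.19. Again no array of one line reached the other. The differences were 1.40 ± 0.30 (adjusted p = 0.00218) and 1.16 ± 0.34 (adjusted p = 0.0181). The low CEM PA values, 7.97 and 8.62, came from scan session 1. Without that session PARP14 was higher in CEM RES by 0.96 in mock (adjusted p = 0.00366) and 0.88 under FK866 (adjusted p = 0.0350). Without FK866 replicate 1 of CEM PA alone, the FK866 difference was 0.88 with adjusted p = 0.181.

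PARG was read by 2 probes that gave different sizes. The array annotation places A_33_P3314212 (chr10:51363207-51363266) 336058 bases upstream of A_23_P97810 (chr10:51027089-51027148; both hg19, minus strand). RefSeq gives PARG as chr10:49818279-49942027 (GRCh38.p14), a shorter span than that distance. The mismatch was not resolved here, so the distance is not one within the gene as RefSeq lists it. A_33_P3314212 read 7.11, 6.72, 7.04 and 6.68 in mock CEM RES cells and 4.78, 4.93 and 5.68 in mock CEM PA cells, a difference of 1.76 ± 0.24 (adjusted p = 0.000117, limma). Under FK866 it read 6.78, 6.72, 6.39 and 6.23 against 5.27 and 5.80, a difference of 1.00 ± 0.27 (adjusted p = 0.0130) that was 0.73 with adjusted p = 0.161 without FK866 replicate 1 of CEM PA. With normexp background correction these differences were 0.75 and 0.36. A_23_P97810 read 6.96, 7.21, 7.64 and 7.18 against 7.47, 6.38 and 6.50, overlapping groups with a difference of 0.46 ± 0.29 (adjusted p = 0.211). RefSeq lists PARGP1, a transcribed pseudogene on the same chromosome, and how much of either signal came from it was not analysed here, so the PARG values are uncertain in that respect.

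PARP4, the vault-associated member, had 1 usable probe. A_33_P3303259 (chr13:25044053-25044112, hg19, minus strand) read 8.32, 8.48, 8.31 and 8.02 in mock CEM RES cells and 7.07, 7.67 and 7.67 in mock CEM PA cells, with no overlap and a difference of 0.81 ± 0.18 (adjusted p = 0.00309). Under FK866 the groups again did not overlap, at 8.27, 8.08, 8.12 and 7.85 against 7.69 and 7.53, and the difference of 0.47 ± 0.21 was not called (adjusted p = 0.0917). The other PARP4 probe, A_32_P144342, was well above background on 1 array of 13, FK866 replicate 3 of CEM RES at 6.24, and the remaining arrays lay between 0.91 and 3.27, so it was given no test.

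PARP2 was lower in CEM RES. Its probe (chr14:20825902-20825961, hg19, plus strand) read 12.58, 12.57, 12.53 and 12.66 in mock CEM RES cells and 13.05, 12.91 and 13.13 in mock CEM PA cells, a difference of -0.44 ± 0.14 (adjusted p = 0.0193). It missed the threshold without mock replicate 3 of CEM PA (adjusted p = 0.0646), and under FK866 the groups overlapped with a difference of -0.30 ± 0.16 (adjusted p = 0.161). A_33_P3290335 of PARP1 was lower in CEM RES in the fit under FK866 (adjusted p = 1.12e-05, limma) and in mock (adjusted p = 0.00117), with no CEM RES array above background. Each CEM RES array was also set at the higher of its own value and the lowest signal called above background there. The difference was then 15.8-fold under FK866. In mock it was 1.12-fold, where only 1 of 3 CEM PA arrays was above background, so this is no measured fold. That lowest signal is no ceiling for signals that were not called, so neither value is a strict bound. The call in mock was lost with normexp background correction, at -0.24 (adjusted p = 0.0731).

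The reference probes of PARP1 did not differ between lines past the threshold. A_33_P3236921 was 0.28 ± 0.16 (adjusted p = 0.175) higher in mock CEM RES cells and 0.33 ± 0.18 (adjusted p = 0.175) under FK866, and A_33_P3290338 differed by 0.66 ± 0.57 and 0.05 ± 0.65. PARP3 differed by -0.21 ± 0.28 and -0.47 ± 0.32, TNKS2 by -0.14 ± 0.16 and -0.34 ± 0.18, and PARP9 by -0.33 ± 0.16 (adjusted p = 0.0983) in mock and 0.25 ± 0.18 (adjusted p = 0.300) under FK866.

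CD38, PARP14 and PARP9 share a promoter feature. RefSeq promoters (GRCh38.p14, from 250 bases before to 50 after the start) were found for 8 of the 10 members, and the core of the interferon-stimulated response element, GAAANNGAA on either strand, stood in those of these 3 genes and in 8.11% of all 35116 promoters. The 80 bases before each start are printed with that core in capitals, on the strand of the gene.

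CD38 (chr4:15778248-15778327, plus): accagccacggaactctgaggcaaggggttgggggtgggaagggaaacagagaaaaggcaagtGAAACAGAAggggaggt
PARP14 (chr3:122680759-122680838, plus): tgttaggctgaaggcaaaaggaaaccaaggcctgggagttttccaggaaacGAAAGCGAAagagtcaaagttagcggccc
PARP9 (chr3:122564301-122564380, minus): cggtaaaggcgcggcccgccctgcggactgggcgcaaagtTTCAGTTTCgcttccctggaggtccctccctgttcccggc

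In PARP9 the core reads on the opposite strand, and the same 9 bases stand in the promoter of DTX3L, which starts next to it in the other direction. RefSeq lists the PARP9 gene up to chr3:122564784, upstream of the start used for this promoter. The core, at chr3:122564332-122564340, therefore lies within the listed gene. The gamma-interferon activation site, TTCNNNGAA, stood in the promoters of PARP14 and PARP2 and in 7.66% of all, and the E2F (TTTCCCGC), ETS (CCGGAAGT) and NRF1 (GCGCATGCG) letters in none of the 8, against 1.63%, 4.14% and 1.92% of all. Of the 3 genes with the response element core, CD38 and PARP14 were higher in CEM RES and PARP9 was not called. DTX3L, named after its values were seen, had log2 means of 7.99 ± 0.93 (SD, n = 3) in mock CEM PA and 8.73 ± 0.35 (SD, n = 4) in mock CEM RES cells, a difference of 0.74 ± 0.42 (adjusted p = 0.168, limma).

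Interferon response genes were called in both directions between the mock lines. Of 28 tested probes for 21 of the 22 listed genes, 4 were higher and 8 lower in mock CEM RES than in mock CEM PA cells at an adjusted p under 0.05, with a median log2 difference of -0.23 against 0.04 over all probes, of which 24.9% were higher and 22.7% lower. SP100, a nuclear body protein, was lower on 2 probes, by -2.28 ± 0.36 (adjusted p = 0.000350) and -1.84 ± 0.24 (adjusted p = 7.92e-05), and on the remaining probe the difference was -0.26 ± 0.21 (adjusted p = 0.324). IFIT2, which binds viral RNA, was lower by -1.06 ± 0.30 (adjusted p = 0.0130). OAS3, an RNA sensor, was higher on 1 probe by 1.01 ± 0.21 (adjusted p = 0.00215) and differed by -0.02 ± 0.23 on the other. After FK866 none of the 28 probes was called in either line.

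Among the other genes of the PARP family, 0 of 14 probes for 9 genes were higher and 4 lower in mock CEM RES than in mock CEM PA cells, with a median of -0.34. Of all probes 24.9% were higher and 22.7% lower. Between FK866-treated cells 1 was higher and 5 were lower, against 18.0% higher and 18.0% lower of all probes. PARP11 was lower by -0.89 ± 0.18 on A_24_P59494 (adjusted p = 0.00173), with -0.44 ± 0.26 on its other probe (adjusted p = 0.183). ZC3HAV1 was lower by -0.87 ± 0.19 on A_33_P3397418 (adjusted p = 0.00249), TIPARP, which is induced by the aryl hydrocarbon receptor, by -0.56 ± 0.17 on A_23_P143845 (adjusted p = 0.0185), with 0.32 ± 0.47 on its other probe (adjusted p = 0.601), and PARP16, an endoplasmic reticulum protein, by -0.38 ± 0.14 (adjusted p = 0.0441). The other TIPARP probe was above background on only 2 of 3 mock CEM PA and 2 of 4 mock CEM RES arrays. After FK866 1 of the 14 probes was called in CEM PA, the ZC3HAV1 probe described above, against 1.53% of all probes, and none in CEM RES. ZC3HAV1 stands in this list by its other name, PARP13, and whether its product uses NAD+ was not tested.

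The enzymes that undo ADP-ribosylation or hydrolyse NAD+ by other routes were not called after FK866 in either line (0 of 11 probes for 10 of 11 genes). Between mock cells 3 were higher and 1 lower in CEM RES, with a median of 0.16, against 24.9% higher and 22.7% lower of all probes. MACROD1, a mitochondrial macrodomain hydrolase, was higher by 1.45 ± 0.17 (adjusted p = 4.70e-05), NUDT5 and NUDT9, which split free ADP-ribose, by 0.67 ± 0.13 (adjusted p = 0.00125) and 0.42 ± 0.12 (adjusted p = 0.0134). ADPRHL2, which removes ADP-ribose from serine, was lower by -0.54 ± 0.20 (adjusted p = 0.0441).

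Among the strand break repair factors that work with PARP1, none of 16 probes for 12 of 13 genes was called after FK866 in either line, and 1 was called between mock cells, LIG1, the replicative DNA ligase, at -0.88 ± 0.14 (adjusted p = 0.000441). Their median difference between mock lines was -0.01. Of all probes 24.9% were higher and 22.7% lower between mock lines.

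The tankyrase partners were not called after FK866 (0 of 17 probes for 9 genes in either line). Between mock cells 4 probes were higher and 8 lower in CEM RES, with a median of -0.40, against 24.9% higher and 22.7% lower of all probes. RNF146, the ligase that reads tankyrase-made chains, was lower by -1.28 ± 0.17 (adjusted p = 8.49e-05). The 3 probes with larger differences belonged to genes whose probes went both ways. TERF1 was higher by 1.94 ± 0.41 on A_33_P3291976 (adjusted p = 0.00215) and lower by -0.90 ± 0.18 on A_32_P220696 (adjusted p = 0.00171). LNPEP was higher by 1.75 ± 0.16 on 1 probe (adjusted p = 8.55e-06) and lower by -0.44 ± 0.17 on the other (adjusted p = 0.0434). AXIN2, a Wnt target and scaffold, was higher by 1.68 ± 0.26 on A_24_P298027 (adjusted p = 0.000320) and lower by -0.90 ± 0.22 on A_23_P148015 (adjusted p = 0.00549). In mock CEM PA cells A_33_P3291976 and A_24_P298027 were each above background on only 2 of 3 arrays, with a mean log2 signal of 3.41. The sizes of these 2 differences are therefore uncertain.

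**Figure D4:**
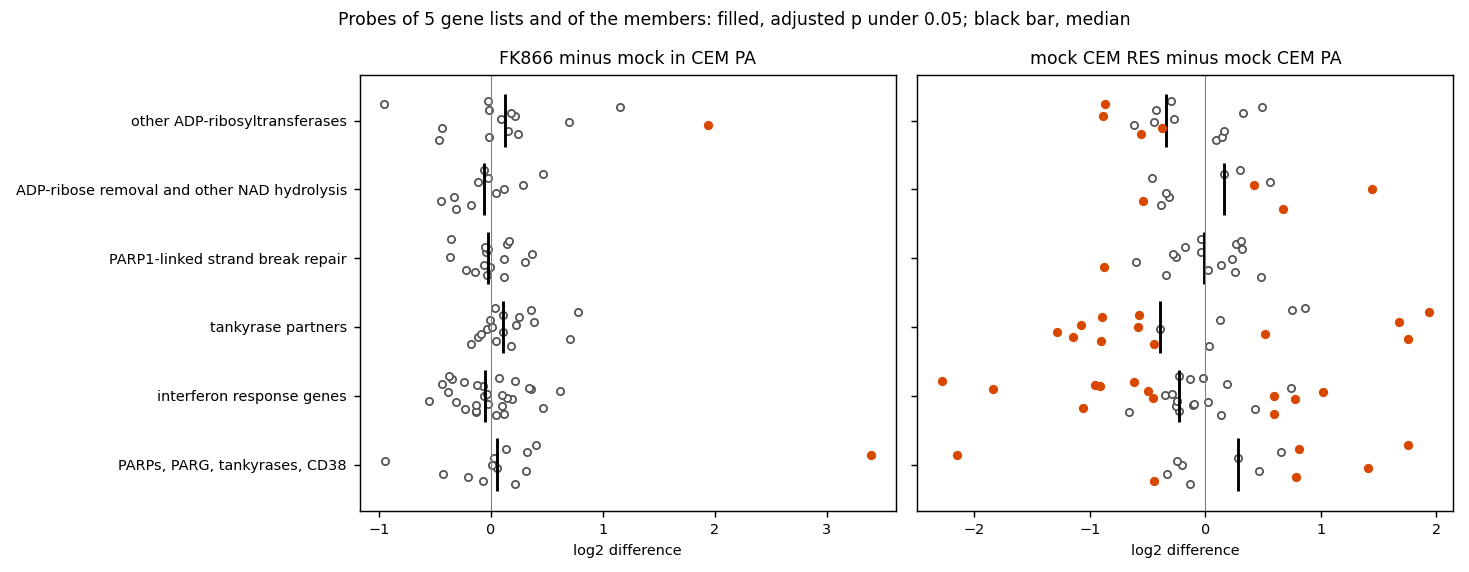
Log2 differences (horizontal axes) of the tested probes of 5 gene lists and of the members, after FK866 in CEM PA (left) and between mock lines (right); each point is a probe, filled at an adjusted p under 0.05, and black bars are medians. On the left the ZC3HAV1 probe at 1.94 and the PARP1 probe at 3.40 are the only filled points. On the right all filled points are negative in strand break repair and in the list labelled other ADP-ribosyltransferases, which holds ZC3HAV1 by its name PARP13. In every other list filled points lie on both sides of 0.

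The genes closest in pattern were looked up for the 2 member probes with the largest fitted differences between the mock lines, A_33_P3290335 of PARP1 and A_33_P3314212 of PARG. The place of the PARP1 probe rests on values below background, so it cannot be ranked above PARP14, PARP4 or CD38. As a description over the 13 arrays, with 1 probe per gene, the log2 signal closest to the PARP1 probe was that of WDR33, a subunit of the polyadenylation machinery (Pearson r = 0.989), followed by C20orf106 (r = 0.970) and LOC100129617 (r = 0.970). The points of that probe below background have no order, so these values rest on the spread between CEM RES and CEM PA and within CEM PA. The signals closest to the PARG probe were those of PAWR (r = 0.977), HSP90AB2P (r = 0.974) and PHF6 (r = 0.973), over arrays of which those of CEM RES share a line and a scan session.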

How the data were processed

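Total RNA of 13 CCRF-CEM cultures was labelled with Cy3 by the authors and hybridised to 1-colour Agilent arrays (hg19 design per the file headers). The deposited processed intensity is background-subtracted by Agilent Feature Extraction (10.7.7.1 per the labels, 10.7.3.1 in the file headers). The authors also deposited a log2 table with median 5.37 on each array, whose kept probes ranked as in the values computed here on each array (lowest Spearman rho 1.00000 after rounding).

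Here log2 processed intensities were quantile-normalized without outlier-flagged spots, spots of a probe were averaged, and probes called above background on all arrays of 1 group or more were kept (22754 of 34127). All 4 groups entered one limma fit (limma 3.58.1, R 4.3.3) without a block, with Benjamini-Hochberg adjustment over kept probes at 0.05, and the study's double threshold beside it. Errors are SE of this fit unless marked SD, and adjusted p-values are from it. On simulated arrays the comparison of treated and mock CEM PA recovered 25.5% of changes of 1 log2 unit and 82.5% of changes of 2. Equal replicate numbers in CEM RES deviated together (correlations 0.200, 0.389, 0.474 and 0.289), and the 2 pairs of CEM PA gave 0.460 and 0.353. Replicate arrays, biological replicates per the labels, correlated at 0.977 to 0.991, and p-values measure only the spread between these arrays.

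The members and gene lists were chosen with earlier results of these data known. Named were all member probes, listed genes called after FK866 in CEM PA, the 4 largest called differences between mock lines per list, and for the 2 member probes with the largest such difference the 3 most similar genes. All 10 member symbols matched RefSeq (GRCh38.p14), the source of the promoters. The alternatives were another scaling, background correction, filter, outlier rule, probe summary, value source, sample set, blocks for replicate number, slide and scan session, array weights, each array left out, and, added after seeing the data, scan session 1 left out.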

Additional observations from a re-analysis of the deposited data

Results flagged for a closer look

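The FK866 response of A_33_P3290335 of PARP1 differed between CEM RES and CEM PA by a log2 value of -3.57 (adjusted p = 0.0291), and that of A_23_P20122 of ZC3HAV1 by -2.15 (adjusted p = 0.0423), each by a test of the difference itself (limma). The PARP1 probe was above background on none of the 8 CEM RES arrays, so its value is that of the fit and not a difference of 2 measured responses. It passed the filter on dim probes only through FK866-treated CEM PA cells, the group where it was high, so its p-value is no support for a difference. Each of these calls was lost in 11 of the 13 fits that left out 1 array. Among 25 groups of 4 CEM RES arrays examined for a single array far from the rest, 2 had one, where chance gives about 1 in 20. A_33_P3290338 of PARP1 read 14.36 on mock replicate 1, above the other mock arrays at 13.94 to 14.00. A_32_P144342 of PARP4 read 6.24 on FK866 replicate 3, and none of the other FK866 arrays was above background.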

How the results depend on the processing

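The 17 called values of single probes (15 of members, 2 of ZC3HAV1) kept their direction in all 427 fits under alternatives and their call in 378. Many of these fits could not change the direction. Leaving out an array of a group not compared, or changing only the filter, leaves the difference itself as it was. The count of kept directions is therefore no measure of robustness. For FK866 in CEM PA, the member probes called by adjusted p went from 1 to 0 with only probes above background on all 13 arrays, with 1 probe per gene, with only the groups compared and without scan session 1, and ranged from 0 to 1 when single arrays were left out. By the double threshold they went from 2 to 1 with normexp, the all-array filter, 1 probe per gene and array weights. Between mock lines the double-threshold count of 5 of 13 became 2 with normexp and 3 with 1 probe per gene or array weights. Over all 22754 probes the double threshold passed 8105 between mock lines and 6986 between treated lines, and with normexp 4818 and 3996. Between treated lines the adjusted count of 5 became 3 with 1 probe per gene and 2 without scan session 1 (1 to 6 leaving out single arrays), and the double-threshold count of 5 became 3 with normexp or 1 probe per gene (2 to 6 leaving out single arrays, lowest without FK866 replicate 1 of CEM PA). For the difference of responses the adjusted count of 1 became 0 with 75th percentile scaling, without a filter, with the all-array filter, with 1 probe per gene and without scan session 1 (0 to 1 leaving out single arrays), and the double-threshold count of 2 became 1 with 1 probe per gene, 4 with scan session as a block and 4 with the replicate block. The replicate block changed no other count of member calls by over 1.5 times. The filter and the probe summary removed A_33_P3290335 of PARP1 from the test; other causes were not tested. Over all probes the adjusted calls for FK866 in CEM PA (347) ran from 3 with only the groups compared to 1410 with array weights, those for the difference of responses (94) from 3 without scan session 1 to 486 with the replicate block, those between treated lines (8186) down to 4189 without FK866 replicate 1 of CEM PA, and those for FK866 in CEM RES from 0 to 3. Double-threshold calls over all probes were fewest with normexp, at 617 of 1524 in CEM PA, 37 of 295 in CEM RES and 953 of 1828 for the difference of responses, and reached 643 in CEM RES without a filter. For the difference of responses they reached 2499 with the replicate block. Signal over background limits A_33_P3290335 of PARP1 and A_32_P144342 of PARP4, and 2 treated CEM PA arrays limit the precision of every comparison that uses them.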
